A study of Mus musculus with 12 samples.

Results

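Mouse embryonic fibroblasts (MEFs) labelled wildtype and kept in Earle's balanced salt solution (EBSS) were compared with MEFs labelled RBBP5 KO and kept in full medium, by poly(A) RNA sequencing. The libraries were the 3 labelled wildtype EBSS and the 3 labelled RBBP5 KO full medium, 6 of the 12 in the series. Its genes were all those with at least 1 TPM (a transcript share per 1000000, corrected for transcript length) in at least 3 of the 6 libraries, 11729 of 25117 symbols. Every cell in the study carried Rbbp5 (flox/flox) and Rosa26 CRE (+/+). The labelled wildtype EBSS cells had no tamoxifen and then 16 hours in EBSS, a salt solution with glucose but without amino acids. The KO full medium cells had tamoxifen for 7 days and then 16 hours in full medium. The labels give DMEM with 10% FBS as the culture medium of all cells beforehand, and do not say whether EBSS was used with or without serum. The 2 groups therefore differ in medium, in genotype label and in tamoxifen at once, and these cannot be told apart here. The remaining libraries, 3 of wildtype in full medium and 3 labelled KO in EBSS, enter only where the same crossing of labels is compared the other way round.

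RBBP5 belongs to the core shared by the COMPASS-type methyltransferases, whose product, methylated lysine 4 of histone H3, marks active promoters. Withdrawal of amino acids and growth factors is known to switch off the kinase complex mTORC1, to activate the transcription factors ATF4, FoxO and TFEB, and to induce autophagy. One class of mRNAs, which encode ribosomal proteins and translation factors, starts with a run of pyrimidines (a 5' terminal oligopyrimidine, or TOP, tract), and its translation falls when mTORC1 is off.

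Rbbp5 itself (ENSMUSG00000026439.14, chromosome 1, 132477365 to 132505659, plus strand, GRCm38) did not follow the labels in EBSS. It was at 12.4, 14 and 11.8 TPM in labelled wildtype EBSS and at 7.47, 9.34 and 8.31 TPM in KO full medium. Wildtype in full medium had 26.2, 25.7 and 26.2 TPM, and labelled KO in EBSS had 31.9, 24.6 and 23 TPM. As deposited, the labelled wildtype EBSS libraries thus lay between the KO level and the level of the other 2 groups, without overlap with either. This position depended on the scale. Size factors over all 12 libraries (median-of-ratios scaling, described below) were 0.598 to 0.64 in labelled wildtype EBSS and 1.17 to 1.25 in the other 2 groups. Divided by them, labelled wildtype EBSS overlapped both of these groups at Rbbp5 and stayed above KO full medium. Across genes, labelled KO EBSS replicates 2 and 3 were also close to wildtype full medium as a whole, with log values correlated at 0.992 to 0.995. Labelled KO EBSS replicate 1 stood apart from them, at correlations of 0.974 and 0.973, against 0.998 between replicates 2 and 3. For these reasons both EBSS groups are named by their labels throughout, and each direction below rests on labels that these values put in doubt. The difference from KO full medium was 0.55 on the log2(TPM + 1) scale (SE 0.16, limma adjusted p = 0.013). It fell short of the threshold without labelled wildtype EBSS replicate 2 (0.49, adjusted p = 0.051) or KO full medium replicate 3 (0.55, adjusted p = 0.052). After median-of-ratios scaling, which divides each library by its median ratio to the geometric mean over libraries, the difference was 1.30 (SE 0.13, limma adjusted p = 2.8e-04). Which exons the deletion removes is not stated in the labels, so reads from exons that remain can count towards these values.

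The choice of scale mattered for the whole comparison. Cytosolic ribosomal protein genes took 33.2%, 31.9% and 30.2% of 1000000 TPM in labelled wildtype EBSS and 19%, 17.0% and 17.8% in KO full medium. The difference was 13.8 percentage points (exact two-sided permutation p = 0.1, the smallest that 3 against 3 allows). RNAs that lack poly(A) tails took 0.837%, 0.894% and 1.25% against 0.0524%, 0.037% and 0.0501%. The median tested gene was at 11.8, 12.4 and 12.3 TPM against 20.6, 22.8 and 22.9 TPM. The deposited values summed to 94.0%, 94.1% and 92.3% of 1000000 in labelled wildtype EBSS and to 98.9%, 99.2% and 98.8% in KO full medium, so the columns do not reach one common total. Since a TPM value is a share of its library, every result below is given as deposited and after median-of-ratios scaling. Size factors were 0.737 to 0.775 in labelled wildtype EBSS and 1.28 to 1.39 in KO full medium. The sequencing depth behind the values is unknown, since TPM keeps none.

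**Figure D1:**
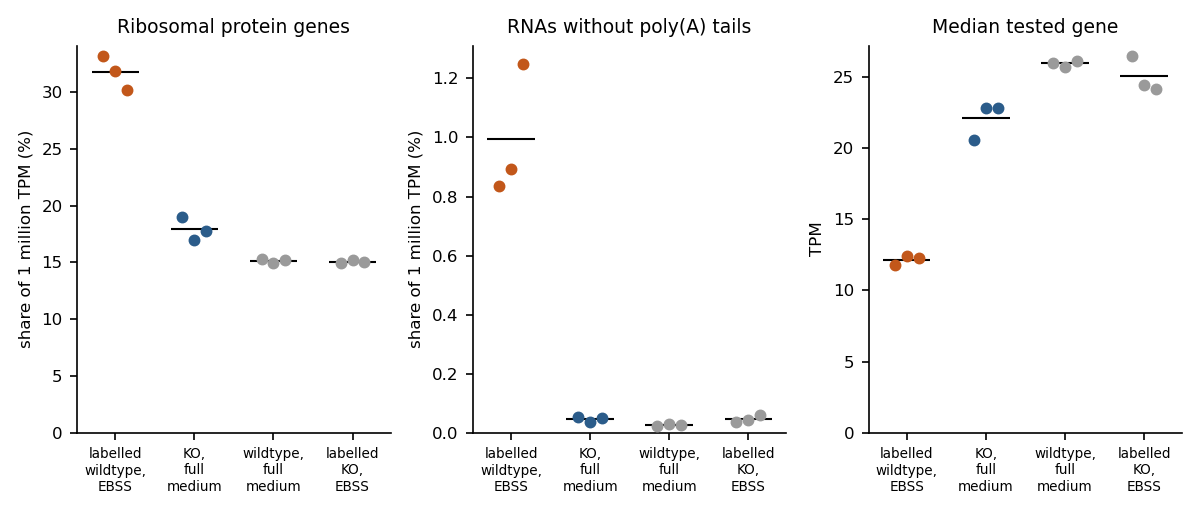
Share of ribosomal protein genes and of structural RNAs in 1000000 TPM (%), and TPM of the median tested gene, in each of the 12 libraries, as deposited. Points are libraries and lines are group means; the 3 labelled wildtype EBSS libraries (orange) lie apart from KO full medium (blue) and from the other 2 groups (grey) in all 3 panels.

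Labelled wildtype EBSS replicate 3 stood apart from replicates 1 and 2. Log values correlated at 0.94 with both, across genes, which are not independent replicates, while replicates 1 and 2 correlated at 0.99. It listed 713 tested genes at 0, against 73 and 94. Of 12 macrophage markers, 11 were highest in this library among the 6. So were 6 of 11 neural and 5 of 9 endothelial markers, all of these under 5 TPM, and 4 of 18 fibroblast markers. The macrophage markers summed to 25.2, 30.1 and 125 TPM in labelled wildtype EBSS and 71.4, 70.7 and 67.3 TPM in KO full medium, where Cd68 alone made 56.4 to 62.0 TPM. Lyz2, a lysozyme of macrophages, was at 2.22, 2.93 and 48.4 TPM against 5.19, 2.15 and 2.61 TPM. Fibroblast markers summed to 5040 to 5965 TPM in labelled wildtype EBSS and 6692 to 7383 TPM in KO full medium, with Vim at 2273 to 2628 against 2996 to 3235 TPM. Of 18 such markers, 2 were under 1 TPM in all 6 libraries. In such bulk samples, fewer cells of a type and less RNA per cell cannot be told apart. Without replicate 3, 9784 genes passed the test described next as deposited and 8739 after scaling. The part of the macrophage markers in other results was not tested.

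Of the 11729 genes, 8752 (74.6%) passed the limma test as deposited, at an adjusted p under 0.05. Of these, 1271 (10.8%) were higher in labelled wildtype EBSS and 7481 (63.8%) were lower. After scaling, 6694 (57.1%) passed, 3248 (27.7%) higher and 3446 (29.4%) lower. The 3 libraries of each group did not overlap at 9241 genes (78.8%) as deposited and 7956 (67.8%) after scaling. All 1271 genes higher as deposited were also higher after scaling, and all 3446 genes lower after scaling were also lower as deposited. At 352 genes (3%) the call turned from lower to higher with scaling. The median log2 change of all tested genes was −0.81 as deposited and −0.07 after scaling, and the counts below are to be read against these backgrounds. Counts of 2 or fewer in a list moved by at most 2 members when 1 library was left out. With so many calls, a share of called members near these percentages is no result about a list. Of the tested genes, 684 passed the filter through 1 group alone, 160 through labelled wildtype EBSS and 524 through KO full medium. Such genes had to differ, and those named below include Ppbp, Snord14c, Usp18, Aspn, Angptl4, Pdgfra, Meg3, Rian, Dleu2, Hist1h2ao, H2bc12 and H1f3. Among the gene lists, interferon-stimulated genes held the most of them (4 of 38 tested). Nuclear-retained long noncoding RNAs (3 of 10), replication-dependent histones (3 of 10) and imprinted genes (3 of 17) followed. Most genes named below were chosen for large changes, so a lack of overlap at them is no separate result.

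The genes furthest apart were small structural RNAs, host genes of small nucleolar RNAs, Hes1 and Cxcl1 on the higher side. On the lower side were Ccn2 and several genes at low levels in labelled wildtype EBSS. Ppbp, a platelet chemokine, was at 0, 0.875 and 0 TPM against 47.6, 45.7 and 46.1 TPM, and Cdh17, a cadherin of gut epithelium, at 1.19, 0.779 and 2.11 TPM against 68.0, 72.4 and 70.5 TPM. Sema3c, a secreted guidance protein, was at 5.55, 4.55 and 2.40 TPM against 80.4, 123 and 124 TPM. These genes were chosen for groups that do not overlap, so the gap between the libraries is no separate result. Rpph1, the RNA of ribonuclease P (chromosome 14, 50807449 to 50807767, minus strand), was at 1102, 1302 and 809 TPM against 3.06, 3.77 and 2.92 TPM, a log2 difference of 7.96 (SE 0.18) as deposited and 8.67 (SE 0.18) after scaling. Rmrp, the RNA of the related mitochondrial RNA processing ribonuclease, was at 869, 1033 and 829 TPM against 7.70, 3.16 and 5.66 TPM. Both RNAs are made by RNA polymerase III and normally lack poly(A) tails. Rn4.5s, a rodent 4.5S RNA with many genomic copies, was at 4815, 4397 and 9159 TPM against 179, 157 and 249 TPM. Rn45s, from which mature ribosomal RNAs are cut, was at 1454, 2105 and 1610 TPM against 272, 176 and 213 TPM. Of 14 listed structural RNAs 7 were tested, of which 5 were higher under both scalings, Terc, the telomerase RNA, was lower as deposited only, and Snora31 was not called. Their level in a poly(A) library depends on the selection step, and its part in these values was not tested. The small nucleolar RNAs Snord14c and Snord14d, which lie in introns of Hspa8, and Snora78 were also among the 10 genes with the largest positive differences. Snord14c was at 108, 93.9 and 519 TPM and listed at 0 in KO full medium. Snord14d was at 69.3, 275 and 532 TPM against 0, 0 and 6.35 TPM.

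Host genes of small nucleolar RNAs were higher at all tested members but 1. These genes carry the small RNAs in their introns, and their spliced transcripts are known to be short-lived when translated. Of 15 tested, 14 were higher and 0 lower under both scalings, with a median log2 change of 2.59 as deposited and 3.42 after scaling. Snhg12 (chromosome 4, 132308623 to 132311024, plus strand) was at 1043, 969 and 943 TPM against 39.0, 36.1 and 41.3 TPM, a log2 difference of 4.63 (SE 0.09, limma adjusted p = 2.9e-07) as deposited. Snhg1 was at 2432, 2204 and 2666 TPM against 176, 173 and 183 TPM. The libraries of the 2 groups did not overlap at these genes, a condition by which Snhg12 had been chosen. Zfas1 was at 1999, 1815 and 1934 TPM against 89.8, 67.5 and 77.5 TPM. It is antisense to Znfx1, and whether counting used strand is not stated in the labels. Gas5, a well-studied host, was at 2017, 1862 and 1983 TPM against 335, 325 and 310 TPM. The member that did not pass was Snhg4, at 40.2, 45.3 and 9.19 TPM against 19.1, 19.8 and 17.7 TPM, where replicate 3 went against the other 2.

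Ribosomal protein mRNAs were higher nearly throughout. Of 79 genes, 75 were higher and 0 lower as deposited, and 78 were higher after scaling, with medians of 0.87 and 1.70. Rpl13a, a protein of the large subunit, was at 3480, 3338 and 3771 TPM against 1233, 1175 and 1287 TPM, and Rpl10 at 3614, 3531 and 3652 TPM against 1020, 959 and 1206 TPM. Neither pair of groups overlapped. Many of these genes have processed pseudogenes, among which the authors' counting could split reads. Of 24 other mRNAs of the TOP class, which encode translation factors, 14 were higher and 4 lower as deposited, and 22 higher and 1 lower after scaling. Eif4a2, an RNA helicase of translation initiation, was at 571, 549 and 555 TPM against 104, 135 and 121 TPM. Eef2, the elongation factor for translocation, was at 5765, 6200 and 5611 TPM against 2600, 2625 and 2689 TPM.

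The defining sequence feature of TOP mRNAs could be looked up at annotated starts. RefSeq promoters on GRCm38.p6 (250 bases before to 50 after a gene's start) matched 9397 of the 11729 tested genes. A run of at least 8 C or T on the coding strand, within 10 bases before to 15 after the start, stood in 23 of 58 ribosomal protein genes (39.7%), 6 of 18 translation factors (33.3%) and 2 of 12 small nucleolar RNA hosts (16.7%). It stood in 11.7% of all tested genes, in 7.5% of mitochondrial ribosomal protein genes and in 7.7% of ribosome biogenesis genes. A match is a description of these letters at the annotated start and not of a working element, and a start annotated a few bases off hides a tract. These sequences are shown because they put the tract (capitals) of 2 members of the higher groups and of 2 host genes side by side, 5' to 3' on the coding strand, at chr7:45128722-45128751 (minus), chr9:78481710-78481739 (minus), chr4:132308665-132308694 (plus) and chr19:8723481-8723510 (plus).
Rpl13a: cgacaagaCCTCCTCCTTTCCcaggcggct
Eef1a1: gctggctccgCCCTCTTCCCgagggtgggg
Snhg12: ccgttctcagTCCTTTCTCgcttcatccgc
Snhg1: gtcggcctcaTTTTTCCTTgttcggggtaa
Eef1a1, the elongation factor that brings tRNAs to the ribosome, was at 12229, 12365 and 10915 TPM against 6813, 6841 and 6197 TPM.

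Genes that build ribosomes had a scaled median near that of all tested genes. Of 57 ribosome biogenesis genes, 3 were higher and 44 lower as deposited, and 19 higher and 17 lower after scaling (median 0.00, against −0.07 for all tested genes). Nop56, a core protein of small nucleolar particles, was at 620, 585 and 679 TPM against 266, 280 and 248 TPM. Ddx18, a helicase of ribosome assembly, was at 27.9, 23.3 and 22.1 TPM against 104, 108 and 108 TPM. Ribosomal proteins of the mitochondrion were lower at 68 of 76 and higher at 2 as deposited, and lower at 36 and higher at 10 after scaling. Without KO full medium replicate 1, the scaled count of lower members was 22. Mrpl41 was at 4.66, 4.60 and 7.64 TPM against 39.5, 37.8 and 43.2 TPM. Complex I of the respiratory chain was lower at 35 of 37 as deposited and at 22 after scaling, with 0 and 5 higher. Ndufv3, a complex I subunit, was at 78.5, 89.8 and 109 TPM against 435, 349 and 358 TPM. Complexes II to V had 31 of 41 lower and 1 higher as deposited, and 10 lower and 11 higher after scaling. The scaled median was −0.46 for complex I and −0.04 for complexes II to V, beside −0.07 for all tested genes.

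**Figure D2:**
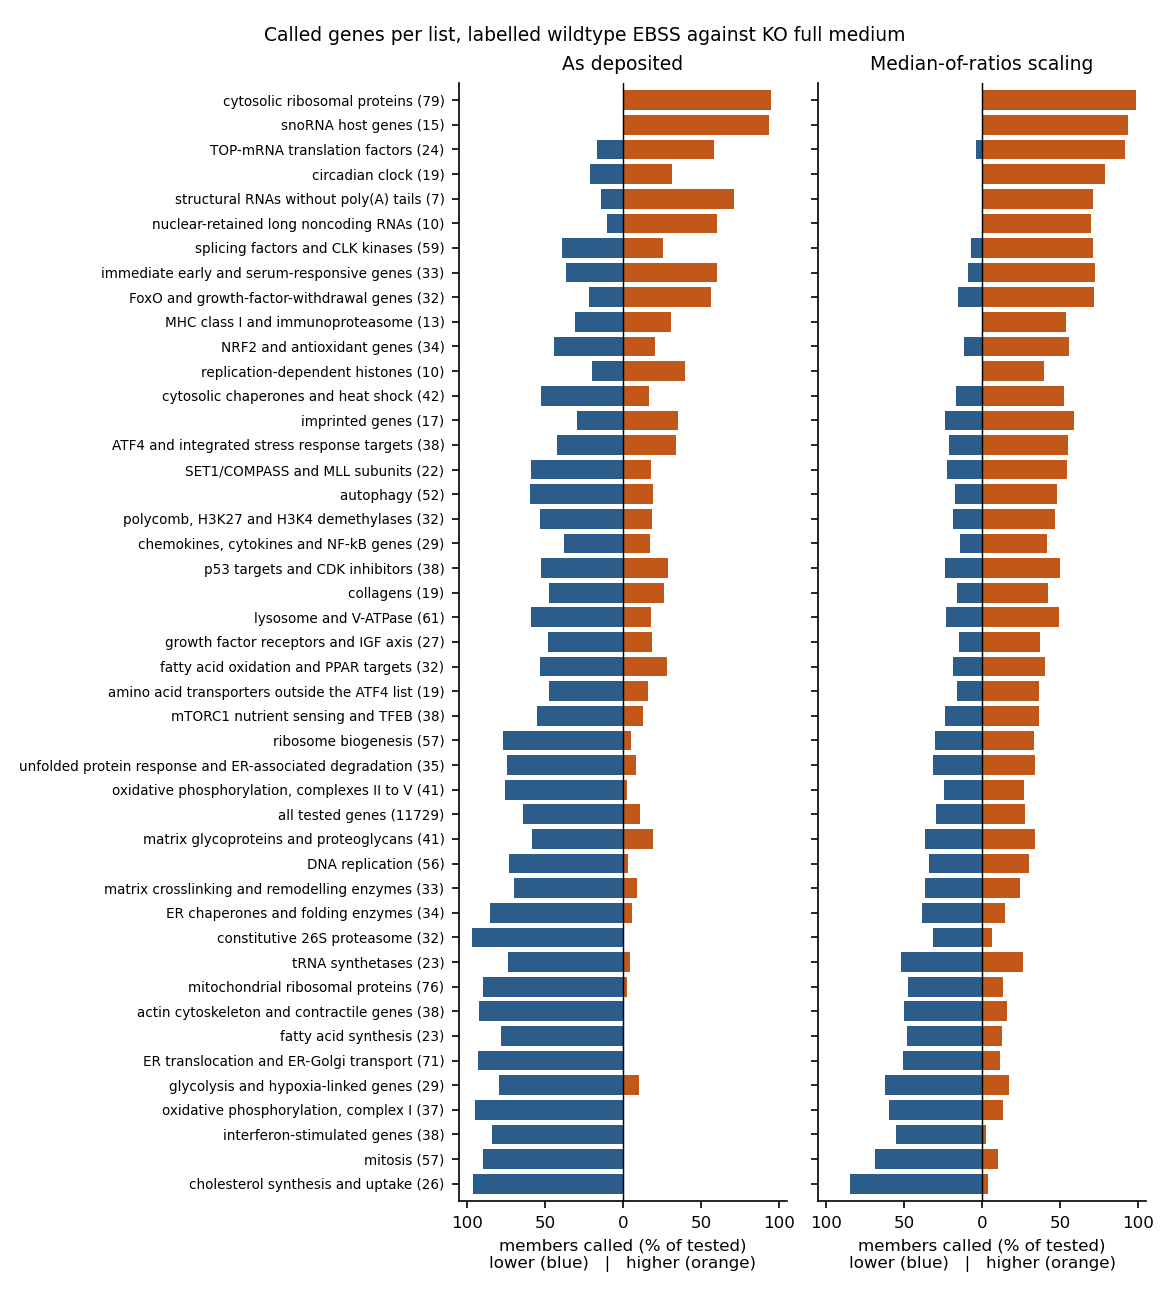
Percent of tested members called higher (orange, to the right) or lower (blue, to the left) in labelled wildtype EBSS than in KO full medium, for each of the 44 gene lists and for all tested genes, as deposited and after median-of-ratios scaling; tested members in brackets. Ribosomal proteins and small nucleolar RNA hosts were called higher at 75 of 79 and 14 of 15 members as deposited, and cholesterol genes lower at 25 of 26.

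Immediate early and serum-responsive genes, counted as 1 list, were mostly higher. Immediate early genes are transcribed within minutes of serum or stress without new protein. Of 33 tested members of this mixed list, 20 were higher and 12 lower as deposited. After scaling 24 were higher and 3 lower, and the medians were 0.92 as deposited and 1.71 after scaling. Fos, a subunit of the AP-1 transcription factor (chromosome 12, 85473890 to 85477273, plus strand), was at 86.4, 95.1 and 85.1 TPM against 3.47, 3.24 and 2.01 TPM. Its log2 difference was 4.54 (SE 0.18, limma adjusted p = 6.1e-06) as deposited and 5.24 after scaling. Egr1, a zinc finger transcription factor, was at 295, 331 and 383 TPM against 14.5, 15 and 12.7 TPM. Zfp36, which destabilises AU-rich mRNAs, was at 87.7, 83.1 and 86.3 TPM against 9.73, 11.5 and 7.83 TPM. All 3 genes were higher in each labelled wildtype EBSS library than in any KO full medium library. Hes1, a repressor that Notch signalling induces (chromosome 16, 30064384 to 30067796, plus strand), was at 539, 552 and 505 TPM against 21.2, 18.4 and 19.5 TPM, a log2 difference of 4.69 (SE 0.09). Ccn2, a secreted matrix protein that serum and YAP induce (chromosome 10, 24595442 to 24598683, plus strand), was at 62.2, 66.0 and 72.8 TPM against 1720, 1705 and 1626 TPM, a log2 difference of −4.63 (SE 0.08) as deposited and −3.81 (SE 0.09) after scaling.

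The CArG box is the binding sequence of serum response factor. On either strand, it stood in the promoter window of 4 of 22 immediate early and serum-responsive genes (18.2%). It stood in 7 of 34 actin and contractile genes (20.6%) and in 1.7% of all tested genes. Of 38 actin and contractile genes, 0 were higher and 35 lower as deposited, and 6 higher and 19 lower after scaling. The scaled count of higher members ranged from 2, without labelled wildtype EBSS replicate 2 or KO full medium replicate 2, to 11 without labelled wildtype EBSS replicate 3. Acta2, smooth muscle actin, was at 235, 306 and 237 TPM against 1113, 1130 and 1174 TPM. Tpm4, a tropomyosin, was at 199, 198 and 201 TPM against 770, 951 and 776 TPM. One gene of each list is shown with its box in capitals, Zfp36 at chr7:28379267-28379296 (minus) and Acta1, skeletal actin, at chr8:123894829-123894858 (minus).
Zfp36: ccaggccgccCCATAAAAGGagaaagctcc
Acta1: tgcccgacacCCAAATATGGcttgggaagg
Acta1 was at 5.26, 4.95 and 13.6 TPM against 58.1, 45.5 and 51.5 TPM, so these 2 genes differed in opposite directions.

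Chemokine and NF-kB genes were mixed. Of 29 tested, 5 were higher and 11 lower as deposited, and 12 higher and 4 lower after scaling (7 lower without labelled wildtype EBSS replicate 3). Cxcl1, a neutrophil chemokine (chromosome 5, 90891241 to 90893115, plus strand), was at 151, 148 and 207 TPM against 3.80, 5 and 4.79 TPM, a log2 difference of 4.93 (SE 0.17) as deposited and 5.67 (SE 0.15) after scaling. Nfkbia, the inhibitor that NF-kB itself induces, was at 190, 167 and 201 TPM against 27.8, 28.3 and 30.8 TPM. Relb, an NF-kB subunit, was at 29.8, 34.6 and 36.9 TPM against 8.06, 6.30 and 8.81 TPM. The groups did not overlap at any of the 3 genes, a condition by which Cxcl1 had been chosen. The NF-kB word GGGNNTTTCC, on either strand, stood in 5 of 21 promoters of the list (23.8%) and in 2.0% of all tested genes. It is shown in capitals for Cxcl1 at chr5:90891164-90891193 (plus) and Nfkbia at chr12:55492657-55492686 (minus), where it lies on the other strand.
Cxcl1: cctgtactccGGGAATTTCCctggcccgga
Nfkbia: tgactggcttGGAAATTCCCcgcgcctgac

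Interferon-stimulated genes were mostly lower. Many of these genes encode antiviral proteins. Of 38 tested, 0 were higher and 32 lower as deposited, and 1 higher and 21 lower after scaling, with medians of −1.25 and −0.66. Eif2ak2, the kinase PKR that senses double-stranded RNA, was at 5.05, 4.48 and 1.48 TPM against 27.2, 33.4 and 37.3 TPM, a log2 difference of −2.94 (SE 0.34, limma adjusted p = 1.8e-04) as deposited. Usp18, which removes ISG15 from proteins, was at 0.671, 0.625 and 0.106 TPM against 8.48, 4.99 and 8.07 TPM. Lgals3bp, a secreted glycoprotein, was at 5.17, 7.22 and 8.71 TPM against 37.4, 33.6 and 43.9 TPM. Eif2ak2 and Lgals3bp did not overlap between the groups. Usp18 passed the filter through KO full medium alone and had to differ. The interferon element GAAANNGAAA, on either strand, stood in 15 of 30 promoters of the list (50%) and in 3.6% of all tested genes. It is shown in capitals for Eif2ak2 at chr17:78882535-78882564 (minus) and, on the other strand, for Ifit3b, an antiviral protein, at chr19:34607793-34607822 (plus).
Eif2ak2: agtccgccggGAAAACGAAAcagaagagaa
Ifit3b: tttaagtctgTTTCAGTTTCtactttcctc
Class I histocompatibility and immunoproteasome genes, which interferon also induces, were divided. Of 13 tested, 4 were higher and 4 lower as deposited (2 lower without KO full medium replicate 3, or without labelled wildtype EBSS replicate 1 or 2), and 7 higher and 0 lower after scaling. H2-D1 was at 42.1, 39.5 and 61.8 TPM against 6.82, 5.54 and 6.14 TPM, with the reservation that its paralogs share sequence.

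Targets of ATF4, which cells translate when eIF2 alpha is phosphorylated, split within the list. Of 38 tested, 13 were higher and 16 lower as deposited, and 21 higher and 8 lower after scaling (5 lower without KO full medium replicate 2 or 3, or without labelled wildtype EBSS replicate 1). Atf4 itself was at 981, 968 and 941 TPM against 486, 493 and 430 TPM. Atf5, a relative of ATF4, was at 370, 395 and 425 TPM against 49.9, 55.7 and 47.1 TPM. Ppp1r15a, which brings a phosphatase to eIF2 alpha, was at 640, 638 and 626 TPM against 101, 89.4 and 89.0 TPM. These regulators were higher in every library of labelled wildtype EBSS. Nupr1, a stress-induced chromatin protein, was at 987, 755 and 886 TPM against 250, 231 and 216 TPM. In contrast, Chac1, which degrades glutathione, was at 11.1, 15.2 and 8.99 TPM against 41.4, 39.7 and 39.1 TPM and was lower under both scalings. Asns, asparagine synthetase, was at 119, 106 and 163 TPM against 207, 216 and 213 TPM, lower as deposited, but 0.09 after scaling (limma adjusted p = 0.63). Trib3, a pseudokinase, was likewise lower as deposited, and −0.01 after scaling (limma adjusted p = 0.93). The ATF4 word TGATGNAA, on either strand, stood in 11 of 32 promoters of the list (34.4%), in 5 of 16 tRNA synthetases (31.2%) and in 2.6% of all tested genes. It is shown in capitals for a gene from each side of the split, on the other strand in both, Nupr1 at chr7:126625562-126625591 (minus) and Chac1 at chr2:119351038-119351067 (plus).
Nupr1: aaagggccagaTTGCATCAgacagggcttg
Chac1: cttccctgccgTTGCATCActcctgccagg
The tRNA synthetases and their partners were mostly lower, at 17 of 23 as deposited and 12 after scaling, with 1 and 6 higher. Vars, the synthetase for valine, was higher, at 184, 207 and 182 TPM against 105, 96.0 and 120 TPM. Hars, that for histidine, was lower, at 54.5, 58.8 and 66.8 TPM against 185, 189 and 198 TPM. Amino acid transporters outside the ATF4 list were lower at 9 of 19 as deposited and 3 higher (1 without KO full medium replicate 1 and 5 without labelled wildtype EBSS replicate 3). After scaling, 7 were higher and 3 lower.

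As deposited, most genes of the secretory pathway were lower, while the chaperone BiP was higher under both scalings. Among 34 folding genes of the endoplasmic reticulum (ER), 2 were higher and 29 lower as deposited, and 5 higher (3 without KO full medium replicate 1 or 3) and 13 lower after scaling. The 2 higher as deposited were Hspa5, which encodes BiP, the main ER chaperone, and Dnajb9, a BiP partner. Hspa5 was at 1664, 1537 and 1961 TPM against 541, 603 and 564 TPM, and Dnajb9 at 110, 109 and 131 TPM against 27.5, 34.3 and 25.2 TPM. In the same libraries Tmx1, a thioredoxin-like ER enzyme, was at 18.6, 20.2 and 19.8 TPM against 98.7, 117 and 103 TPM. Unfolded protein response and ER degradation genes were lower at 26 of 35 and higher at 3 as deposited, and lower at 11 and higher at 12 after scaling, near the shares of all tested genes. Edem2, a mannosidase that marks proteins for degradation, was at 15.9, 15 and 21.8 TPM against 76.0, 72.0 and 82.0 TPM. Translocation and ER-to-Golgi traffic genes were lower at 66 of 71 and higher at 0 as deposited. After scaling, 36 were lower and 8 higher (13 higher without labelled wildtype EBSS replicate 3). Sec23b, a coat protein of transport vesicles, was at 19.7, 22.5 and 13.8 TPM against 121, 135 and 140 TPM. The proteasome was lower at 31 of 32 as deposited, and after scaling 10 were lower and 2 higher (4 higher without labelled wildtype EBSS replicate 3). Psmb6, a catalytic subunit, was at 129, 122 and 124 TPM against 530, 457 and 457 TPM.

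Cytosolic chaperones and heat shock genes were lower at 22 of 42 and higher at 7 as deposited, and higher at 22 and lower at 7 after scaling. Hspa1b, the inducible HSP70, was at 353, 417 and 342 TPM against 42.7, 49.4 and 52.8 TPM. Its nearly identical neighbour Hspa1a was at 125, 154 and 103 TPM against 15.8, 15.9 and 18.3 TPM, and reads can be split between the 2. Pfdn6, a prefoldin subunit, was lower, at 113, 108 and 127 TPM against 453, 379 and 426 TPM. Of 34 NRF2 and antioxidant genes, 7 were higher and 15 lower as deposited, and 19 higher and 4 lower after scaling (2 lower without any 1 KO full medium replicate). Gstm1, a glutathione transferase, was at 141, 142 and 188 TPM against 60.8, 60.9 and 48.2 TPM, while Gsr, glutathione reductase, was at 17.3, 20.0 and 18.9 TPM against 62.0, 77.9 and 71.2 TPM.

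For autophagy, lysosome and nutrient sensing genes the balance of higher and lower calls turned with the scale. Of 52 autophagy genes, 10 were higher and 31 lower as deposited, and 25 higher and 9 lower after scaling. Atg14, a subunit of the lipid kinase that starts autophagosomes, was at 34.3, 40.2 and 32.6 TPM against 7.62, 8.25 and 8.98 TPM. Sqstm1, the cargo receptor p62, was at 1078, 1035 and 1020 TPM against 384, 386 and 374 TPM. Bnip3, a mitophagy receptor induced by hypoxia, was lower, at 19.5, 21.4 and 32.8 TPM against 177, 177 and 155 TPM. Of 61 lysosome genes, 11 were higher and 36 lower as deposited, and 30 higher and 14 lower after scaling. Gla, a lysosomal galactosidase, was at 137, 159 and 131 TPM against 28.9, 30.2 and 32.8 TPM, and Arsb, a sulfatase, at 5.80, 6.54 and 7.6 TPM against 37.7, 45.4 and 45.4 TPM. Genes of mTORC1 nutrient sensing and TFEB had 5 of 38 higher and 21 lower as deposited, and 14 higher and 9 lower after scaling. Sesn1, a stress-induced inhibitor of mTORC1, was at 37.5, 30.3 and 44.0 TPM against 10.3, 13.0 and 14.4 TPM. For FoxO and growth-factor-withdrawal genes the direction held on both scales, with 18 of 32 higher and 7 lower as deposited, and 23 higher and 5 lower after scaling (3 lower without KO full medium replicate 2). Pdk4, a kinase that inhibits pyruvate dehydrogenase, was at 36.3, 31.9 and 42.4 TPM against 4.37, 5.61 and 6.36 TPM. Txnip, an inhibitor of glucose uptake, was at 267, 242 and 211 TPM against 54.1, 46.5 and 49.7 TPM.

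Cholesterol synthesis and uptake was the list with the largest share of lower members after scaling. Of 26 genes, 25 were lower as deposited and 22 after scaling, with 0 and 1 higher and medians of −1.90 and −1.10. Idi1, an isomerase of the mevalonate pathway, was at 16.1, 17.1 and 10.8 TPM against 97.1, 111 and 115 TPM, a log2 difference of −2.82 (SE 0.18, limma adjusted p = 1.7e-05) as deposited and −2.01 (SE 0.18) after scaling. The groups did not overlap. The exception after scaling was Insig1, which holds SREBP in the ER, at 69.1, 70.2 and 69.3 TPM against 73.4, 80.5 and 81.9 TPM. The sterol element word ATCACNCCAC, on either strand, stood in 0 of 18 promoters of the list and in 0.2% of all tested genes. Fatty acid synthesis was lower at 18 of 23 as deposited and 11 after scaling, with 0 and 3 higher (5 without labelled wildtype EBSS replicate 3, and 1 without replicate 1 of that group or KO full medium replicate 2 or 3). Scd2, a desaturase, was at 68.5, 71.0 and 57.3 TPM against 229, 339 and 383 TPM. Of 32 fatty acid oxidation and PPAR genes, 9 were higher and 17 lower as deposited, and 13 higher and 6 lower after scaling. Angptl4, a secreted inhibitor of lipoprotein lipase, was at 16.4, 16.1 and 24.6 TPM against 0.625, 0.868 and 0.890 TPM. Hadhb, an enzyme of the oxidation cycle, was lower, at 20.2, 22.3 and 15.4 TPM against 82.0, 89.9 and 94.6 TPM.

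Glycolysis and hypoxia-linked genes were lower at 23 of 29 as deposited and 18 after scaling, with 3 and 5 higher. Slc16a3, the lactate exporter MCT4 (chromosome 11, 120948480 to 120960868, plus strand), was at 1.17, 1.55 and 1.40 TPM against 34.3, 29.6 and 30.7 TPM. Its log2 difference was −3.78 (SE 0.16, limma adjusted p = 7.6e-06) as deposited and −3.12 (SE 0.16) after scaling. Pdk1, a kinase that HIF-1 induces, was at 3.23, 4.08 and 2.99 TPM against 36.0, 40.5 and 39.1 TPM. Pfkl, a phosphofructokinase, was at 45.5, 52.9 and 45.1 TPM against 281, 271 and 332 TPM. All 3 were several-fold lower in each labelled wildtype EBSS library than in any KO full medium library.

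**Figure D3:**
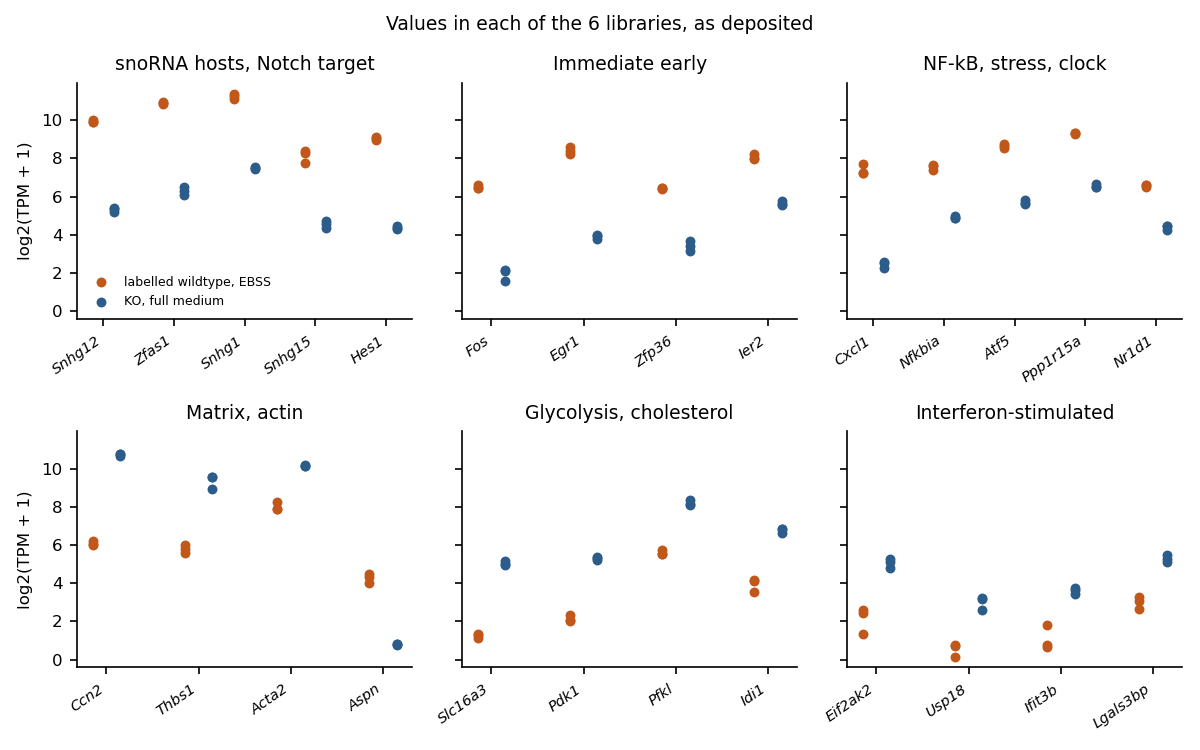
log2(TPM + 1) as deposited of 26 genes in each of the 3 labelled wildtype EBSS (orange) and 3 KO full medium (blue) libraries, by group of genes. The groups do not overlap at any gene shown: for example Hes1 was at 505 TPM or more in orange and at 21.2 TPM or less in blue. The genes were mostly chosen for large changes, and Usp18 and Aspn passed the filter through 1 group alone, so this is no separate result.

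Mitosis genes were mostly lower under both scalings, while DNA replication genes had medians near those of all tested genes. Of 57 mitosis genes, 51 were lower as deposited and 39 after scaling, with 0 and 6 higher. Ccna2, cyclin A2, was at 21.2, 19.8 and 22.6 TPM against 106, 123 and 124 TPM, and Kif23, a motor of cytokinesis, at 12.3, 12.1 and 9.54 TPM against 56.8, 68.0 and 66.1 TPM. Of 56 DNA replication genes, 41 were lower and 2 higher as deposited, and 19 lower and 17 higher after scaling. Their medians were −0.88 and −0.06, against −0.81 and −0.07 for all tested genes. Rrm2, the regulated subunit of ribonucleotide reductase, was at 102, 109 and 130 TPM against 475, 518 and 537 TPM. Of 38 p53 targets and CDK inhibitors, 11 were higher and 20 lower as deposited, and 19 higher and 9 lower after scaling. Mdm2, the ligase that degrades p53, was at 733, 583 and 797 TPM against 128, 152 and 139 TPM. Tigar, a p53 target that lowers glycolytic flux, was at 2.65, 2.87 and 2.84 TPM against 20.6, 26.7 and 24.8 TPM. These 2 members of the list differed in opposite directions.

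Matrix genes differed in both directions. Of 19 collagens, 5 were higher and 9 lower as deposited, and 8 higher and 3 lower after scaling (1 lower without KO full medium replicate 3). Col6a1, a chain of collagen VI, was at 140, 141 and 157 TPM against 54.0, 66.4 and 72.8 TPM. Col8a1, a chain of collagen VIII, was at 3.49, 3.99 and 0.953 TPM against 24.6, 38.2 and 36.4 TPM. Matrix glycoproteins and proteoglycans were lower at 24 of 41 and higher at 8 as deposited, and lower at 15 and higher at 14 after scaling. Thbs1, thrombospondin, was at 46.2, 55.1 and 62.0 TPM against 488, 753 and 756 TPM. Aspn, asporin, was at 15.2, 19.3 and 20.9 TPM against 0.764, 0.734 and 0.683 TPM, the opposite way. Matrix crosslinking and remodelling enzymes were lower at 23 of 33 and higher at 3 as deposited, and lower at 12 and higher at 8 after scaling (5 higher without KO full medium replicate 2). Of 27 growth factor receptors and IGF genes, 5 were higher and 13 lower as deposited (3 higher without KO full medium replicate 1, and 8 without labelled wildtype EBSS replicate 3), and 10 higher and 4 lower after scaling. Egfr, the receptor for epidermal growth factor, was at 5.99, 7.24 and 8.95 TPM against 0.800, 1.35 and 1.38 TPM, while Met, the receptor for hepatocyte growth factor, was at 3.83, 4.45 and 2.78 TPM against 19.9, 26.5 and 26.4 TPM. Pdgfra, also a fibroblast marker, was at 2.84, 2.49 and 11.9 TPM against 0.263, 0.224 and 0.225 TPM. Its log2 difference of 2.17 as deposited was 1.56 without replicate 3.

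Genes of the complexes to which RBBP5 belongs were called in both directions. As deposited the share of lower members was near the 63.8% of all tested genes, which is no result about the list. Of 22 SET1/COMPASS and MLL genes, 4 were higher and 13 lower as deposited (2 higher without labelled wildtype EBSS replicate 2), and 12 higher and 5 lower after scaling (3 lower without KO full medium replicate 2). Dpy30, a small core subunit, was at 65.3, 61.8 and 46.5 TPM against 280, 302 and 262 TPM. Setd1a, a catalytic subunit, was at 65.4, 63.3 and 72.0 TPM against 26.8, 29.8 and 28.4 TPM. The core subunit Ash2l was at 34.0, 35.3 and 28.1 TPM against 72.4, 83.5 and 77.3 TPM, lower under both scalings, and Wdr5 at 58.1, 59.5 and 55.8 TPM against 70.5, 76.4 and 81.0 TPM, where scaling turned the call from lower to higher. Of 32 polycomb and demethylase genes, 6 were higher and 17 lower as deposited, and 15 higher and 6 lower after scaling. Kdm6b, which removes methyl groups from H3 lysine 27, was at 30.3, 34.5 and 35.9 TPM against 12.9, 14.4 and 15.1 TPM.

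Several nuclear RNAs and regulators were higher. Of 59 splicing factors and CLK kinases, 15 were higher and 23 lower as deposited, and 42 higher and 4 lower after scaling. Clk1, a kinase of splicing factors, was at 191, 178 and 159 TPM against 36.2, 41.3 and 38.9 TPM. Of 10 nuclear-retained long noncoding RNAs, 6 were higher and 1 lower as deposited, and 7 higher and 0 lower after scaling. Among the higher members, Meg3, Rian and Dleu2 passed the filter through labelled wildtype EBSS alone and had to differ. Neat1, the scaffold of paraspeckles, was at 440, 544 and 500 TPM against 118, 114 and 85.8 TPM. Of 19 circadian clock genes, 6 were higher and 4 lower as deposited (2 lower without KO full medium replicate 2 or 3, or without labelled wildtype EBSS replicate 2), and 15 higher and 0 lower after scaling. Nr1d1, the repressor REV-ERB alpha, was at 94.9, 95.0 and 88.5 TPM against 20.6, 21.3 and 18 TPM. Of 17 imprinted genes, 6 were higher and 5 lower as deposited, and 10 higher and 4 lower after scaling (2 lower without KO full medium replicate 2 or 3, or without labelled wildtype EBSS replicate 2). Phlda2, a placental growth restrictor, was at 12.0, 10.5 and 13.9 TPM against 2.19, 3.14 and 2.50 TPM. Only 16 of 36 listed replication-dependent histone genes were found by symbol and 10 were tested. Of these, Hist1h2ao, H2bc12 and H1f3 passed the filter through labelled wildtype EBSS alone and had to differ. With these 3 included, 4 of the 10 were higher under both scalings. That count ranged from 1 to 7 as deposited and from 2 to 8 after scaling when a library was left out, the lowest without KO full medium replicate 1 (after scaling, 1 or 2) and the highest without labelled wildtype EBSS replicate 3.

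Transcript length, which could bear on a comparison of libraries with different shares of short transcripts, was set beside the changes. Across 11189 protein-coding genes, which are not independent replicates, Spearman's rho between median transcript length and log2 change was 0.002 as deposited and −0.024 after scaling. The median change was −0.82 in the 2802 shortest genes and −0.80 in the 2797 longest.

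The same crossing of labels can be read the other way round, as labelled KO EBSS minus wildtype full medium. The 2 comparisons share no library, so their difference could be tested in 1 limma fit of all 12 libraries. The difference passed at 7898 genes (67.3%) as deposited, 1094 (9.33%) above 0 and 6804 (58%) below, and at 5892 (50.2%) after scaling, of which 2919 (24.9%) were above 0 and 2973 (25.3%) below. Labelled KO EBSS replicates 2 and 3 correlated with wildtype full medium at 0.992 to 0.995, against 0.998 to 0.999 among wildtype full medium libraries, so apart from labelled KO EBSS replicate 1 the mirrored comparison is between libraries that differ little. Values without that library, an alternative chosen after seeing the data, are given beside those that rest on it. After scaling, 12 genes passed in the mirrored comparison, and 27 without that library. The difference between the comparisons therefore largely repeats the main comparison. The median of small nucleolar RNA hosts was 3.42 here and 0.13 there after scaling. That of immediate early and serum-responsive genes was 1.71 and −0.07, and that of ribosomal proteins 1.70 and −0.01. The median of cholesterol genes was −1.10 here and −0.05 there. For structural RNAs the medians were 3.79 and 0.52, and the mirrored median was 0.79 without labelled KO EBSS replicate 1. Rpph1 was higher in both comparisons. It was at 9.09, 10.9 and 9.49 TPM in labelled KO EBSS and at 2.01, 2.78 and 2.62 TPM in wildtype full medium. Its mirrored log2 difference after scaling was 1.62 (limma adjusted p = 0.0089). The difference passed at 14 of 15 small nucleolar RNA hosts, 78 of 79 ribosomal proteins and 17 of 26 cholesterol genes (below 0) after scaling. For ATF4 targets the medians were 0.70 and 0.55, and the difference passed above 0 at 8 of 38 and below 0 at 2. Without labelled KO EBSS replicate 1, the mirrored median of ATF4 targets was 0.04, and the difference passed above 0 at 21 and below 0 at 6.

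The difference between the 2 comparisons after scaling was 5.26 for Hes1 (limma adjusted p = 4.0e-09), 5.15 for Egr1 and 4.83 for Snhg12. For Slc16a3 it was −3.04. It was −2.69 for Ccn2 (limma adjusted p = 0.045), which was at 128, 1345 and 1353 TPM in labelled KO EBSS and at 1353 to 1404 TPM in wildtype full medium. Replicate 1 alone was low, and without it the difference was −3.85 (limma adjusted p = 1.8e-08), with 0.04 in the mirrored comparison. Hspa5 was at 8019, 1549 and 1388 TPM in labelled KO EBSS and at 1293 to 1338 TPM in wildtype full medium. Its difference was 1.41 with all libraries (limma adjusted p = 0.11) and 2.20 without replicate 1 (limma adjusted p = 1.0e-06). For Thbs1 it was −1.60 with all libraries (limma adjusted p = 0.14) and −2.56 without replicate 1 (limma adjusted p = 5.4e-06). Leaving out this 1 library therefore brought Hspa5 and Thbs1 past the threshold. For Snhg12 the difference without it was 5.42. For Rbbp5 the difference was 1.28 (SE 0.16, limma adjusted p = 8.0e-05), with 0.05 in the mirrored comparison.

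**Figure D4:**
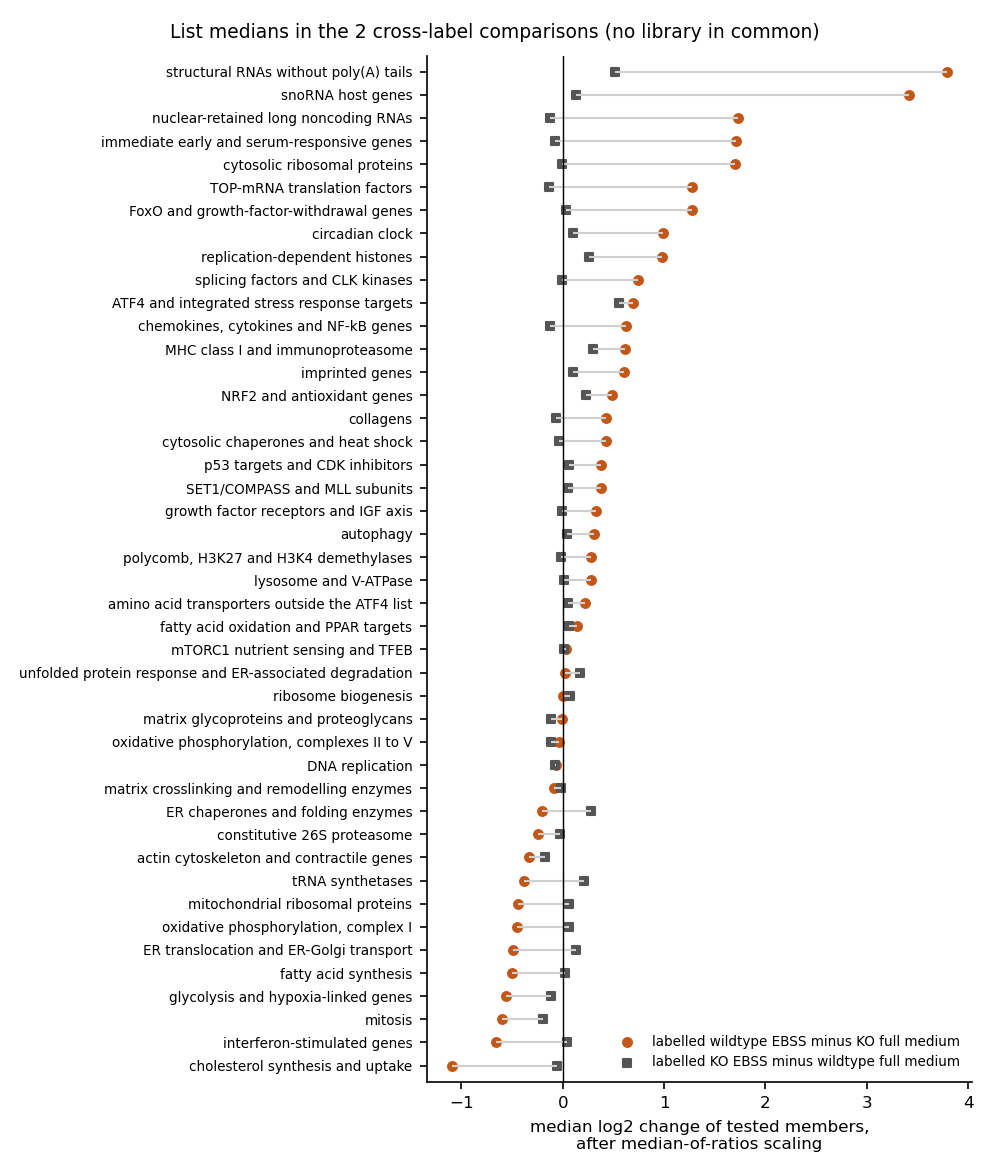
Median log2 change of the tested members of each of the 44 lists after median-of-ratios scaling, for labelled wildtype EBSS minus KO full medium (orange circles) and labelled KO EBSS minus wildtype full medium (grey squares); grey lines join the 2 values of a list. The circles span −1.10 to 3.79, while the squares span −0.19 to 0.55 with labelled KO EBSS replicate 1 included, and −0.14 to 0.79 without it (not drawn).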

How the data were processed

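The authors deposited 1 table of TPM values for 12 libraries, 4 groups of 3. Per the submitters' processing notes, Salmon and the mm10 build were used; for the annotation and the summing of transcripts the sources used here give nothing. TPM holds no counts, so a count test was not used. Values were tested as log2(TPM + 1), a scale that understates changes of low genes, with limma 3.58.1 (variance trend, R 4.3.3) over the 6 libraries, as deposited and after median-of-ratios scaling, with Benjamini-Hochberg adjustment over 11729 genes and a threshold of 0.05. Changes are labelled wildtype EBSS minus KO full medium. The cross-label difference came from a fit of 12 libraries. Nothing in the labels says that replicates were separate cultures or animals, so p-values measure only the spread between these samples.

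The members and the 44 lists were chosen with earlier results of these data known. Named genes are Rbbp5, the 10 largest rises, the 10 largest falls and up to 4 members of each list, all but Rbbp5 called in 1 direction under both scalings. The rises and falls had a mean of at least 5 TPM in the higher group and no overlap, without predicted genes, pseudogenes and ribosomal protein genes. List members had the largest changes of their list and did not have to meet these further conditions. Rn45s, Terc, Snora31, Snhg4, Gas5, Eef1a1, Sqstm1, Atf4, Chac1, Asns, Trib3, Insig1, Ash2l, Wdr5 and the markers Lyz2 and Vim fall outside these rules and were chosen after their values were seen. Promoter sequences and starts are from RefSeq (GRCm38.p6), and gene positions from GENCODE on GRCm38. On simulated data with 200 of 11729 genes changed, the main fit recovered 50% of genes changed by 1 on the log2 scale and 89% of those changed by 2. Of its calls, 4.14% were false. The simulation had few changed genes, normal noise, no shift in library composition and no library that stood apart. The data differ in each of these, so its rates do not carry over to them.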

Additional observations from a re-analysis of the deposited data

Results flagged for a closer look

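The difference between the 2 crossings of labels (labelled wildtype EBSS minus KO full medium, less labelled KO EBSS minus wildtype full medium) passed the limma test at 7898 of 11729 genes as deposited and at 5892 after median-of-ratios scaling. These results are listed because 2 pairs of groups gave different effects by a test of the difference itself. In the second pair alone, 12 genes passed after scaling, and 27 without labelled KO EBSS replicate 1. The difference therefore largely repeats the first pair and is no separate result. After scaling, the difference was 1.28 for Rbbp5, 5.26 for Hes1, 4.83 for Snhg12 and 5.15 for Egr1. It was −2.69 for Ccn2 and −3.04 for Slc16a3. Rbbp5 was at 23 to 31.9 TPM in labelled KO EBSS, so the label of that group, and with it the meaning of the second pair, is in doubt. Without labelled KO EBSS replicate 1, which stood apart from replicates 2 and 3, the scaled difference was −3.85 for Ccn2 and 5.42 for Snhg12. The numerical check for single values far from their group needs at least 4 samples and was not run on groups of 3; the 2 libraries that stood apart by correlation across genes, labelled wildtype EBSS replicate 3 and labelled KO EBSS replicate 1, are described with the results.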

How the results depend on the processing

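The split of higher and lower calls depended on the scaling, as constructed: 1271 higher and 7481 lower as deposited became 3248 and 3446 after median-of-ratios scaling, 3116 and 3630 after quantile normalization, and 1965 higher with ribosomal protein genes and structural RNAs left out and the rest rescaled. With a 2-fold minimum, 5386 genes passed as deposited (604 higher, 4782 lower) and 3113 after median-of-ratios scaling (1592 higher, 1521 lower). The cross-label difference after scaling was above 0 at 2919 genes and below 0 at 2973, and without labelled KO EBSS replicate 1 (chosen after seeing the data) at 3087 and 3109. Leaving out 1 library gave 7713 to 9784 calls (1113 to 1559 higher, 6593 to 8225 lower), and after scaling 5153 to 8739 (2686 to 4326 higher, 2467 to 4413 lower). The highest of each came without labelled wildtype EBSS replicate 3. The cross-label difference passed at 7358 to 8815 genes (994 to 1314 above 0, 6352 to 7501 below), and the difference in ribosomal protein share was 13.1 to 14.6 percentage points. Same-numbered replicates correlated at 0.097, −0.094 and 0.060 in their deviations from group means, and different-numbered ones at −0.113 to 0.101. Deviations within a group of 3 sum to 0, so these values cannot decide whether the numbers pair the libraries. With the replicate block, 8570 genes passed (1218 higher, 7352 lower), 6139 after scaling (3020 and 3119), and 7817 for the cross-label difference (1079 and 6738). A filter chosen after seeing the data, at least 1 TPM in a library of each group, left 8025 calls. Of 187 named genes, most of them chosen for calls in 1 direction under both scalings, 13 lost a call in some setting; since the choice favours stable genes, this is no measure of stability. Depth is unknown, so its effect on low genes could not be assessed.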

Other observations

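Summed levels of markers of other cell types rested in several lists mostly on 1 gene. Skeletal muscle markers summed to 12.1 to 16.4 TPM in labelled wildtype EBSS and 57.2 to 72.6 TPM in KO full medium, of which Acta1 made 4.95 to 13.6 and 45.5 to 58.1 TPM. Adipocyte markers summed to 15.3 to 23.4 TPM against 56.1 to 68.7 TPM, of which Fabp4 made 5.94 to 12.4 and 45.0 to 57.4 TPM. Endothelial markers summed to 10.7 to 13.7 TPM against 6.56 to 6.73 TPM, and neural markers to 54.7 to 62.1 TPM against 79.5 to 89.0 TPM. Epithelial markers summed to 213 to 230 TPM against 248 to 284 TPM, of which Krt19 made 203 to 218 and 237 to 271 TPM. Cartilage and bone markers (13.6 to 20.8 against 19.8 to 20.9 TPM) and erythroid markers (2.16 to 15.8 against 2.13 to 5.20 TPM) overlapped between the groups. The part of these markers in other results was not tested.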
